A study of Mus musculus with 8 samples.

Results

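The Wnt pathway was followed through 8 mouse neurosphere cultures by its secreted ligands, receptors, agonists, antagonists and best known target genes. Members were the Wnt, Fzd, Sfrp, Dkk and Rspo families together with Axin2, Lef1, Tcf7, Lgr5, Sp5, Nkd1, Notum, Lrp5 and Lrp6, taken by gene name, which gave 50 of the 35513 genes on the array. They comprised 19 ligands, 13 receptors, 4 agonists, 9 antagonists and 5 intracellular feedback or target genes. Neurospheres are balls of neural progenitors grown in suspension, here derived from EB3 mouse embryonic stem cells by way of embryoid bodies made with Noggin, a BMP inhibitor. On day 6 the embryoid bodies were dissociated and infected with lentivirus at a multiplicity of about 25, and all cultures received 20 ng/ml FGF2. The 4 lentiviral conditions were an shRNA against Nr2f1 and Nr2f2, which encode orphan nuclear receptors, a control shRNA against firefly luciferase, the microRNA miR-17, and a control miRNA. Each condition was measured once in tertiary neurospheres (P2, after repeated dissociation and regrowth) and once in primary neurospheres (P0, after 6 days), so each of the 8 groups had 1 array. Nothing in the labels states that cultures were independent, so spread between arrays may be partly technical, and no promoter or clone is named for the vectors.

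Wnt proteins are secreted lipid-modified ligands that bind Frizzled receptors with the co-receptors Lrp5 and Lrp6, which stabilises beta-catenin and lets it act with Tcf and Lef proteins in the nucleus. R-spondins raise the amount of receptor at the cell surface through Lgr receptors, whereas Sfrp, Dkk and Notum proteins act against the ligand or the co-receptor. In the embryonic mouse brain, Wnt and R-spondin genes are known for expression at the dorsal midline, and Wnt signalling is known to act on the growth and patterning of neural progenitors.

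Promoters are printed for Sp5, Dkk1 and Lef1, members higher by 2-fold with Nr2f1/2 shRNA at P2 whose windows held at least 3 of the letters searched, and for Axin2, a target that differed by less. They were chosen after the matches were seen. The windows are the 250 bases before the annotated start, read 5′ to 3′ on the gene's strand from RefSeq on GRCm38.p6. Capitals mark the Tcf/Lef core letters CTTTGA and CTTTGT and their reverse strands TCAAAG and ACAAAG, none of which overlap in these windows. Sp5 lies at chr2:70474673-70474922, Dkk1 at chr19:30549497-30549746 on the minus strand, Lef1 at chr3:131156044-131156293, the last of its 4 annotated starts, and Axin2 at chr11:108920099-108920348.
Sp5: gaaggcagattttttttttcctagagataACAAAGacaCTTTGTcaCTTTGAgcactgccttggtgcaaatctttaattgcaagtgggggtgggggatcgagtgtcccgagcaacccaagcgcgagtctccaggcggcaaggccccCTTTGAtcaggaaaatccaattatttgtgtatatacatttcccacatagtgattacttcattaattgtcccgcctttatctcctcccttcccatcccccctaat
Dkk1: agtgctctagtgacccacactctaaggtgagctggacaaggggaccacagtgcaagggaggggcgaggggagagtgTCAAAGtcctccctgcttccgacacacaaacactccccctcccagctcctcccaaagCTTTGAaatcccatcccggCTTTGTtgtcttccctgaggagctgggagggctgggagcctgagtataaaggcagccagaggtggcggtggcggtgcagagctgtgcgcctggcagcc
Lef1: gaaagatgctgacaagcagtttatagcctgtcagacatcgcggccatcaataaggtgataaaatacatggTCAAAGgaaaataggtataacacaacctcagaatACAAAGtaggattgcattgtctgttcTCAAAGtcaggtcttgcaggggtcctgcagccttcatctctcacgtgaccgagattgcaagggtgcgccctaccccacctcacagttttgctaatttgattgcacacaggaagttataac
Axin2: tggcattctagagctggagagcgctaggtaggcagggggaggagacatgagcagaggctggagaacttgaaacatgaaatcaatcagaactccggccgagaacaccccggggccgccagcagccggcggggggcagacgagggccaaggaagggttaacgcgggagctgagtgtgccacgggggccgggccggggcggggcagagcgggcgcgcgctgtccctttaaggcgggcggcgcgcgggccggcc
The Sp5 window held 4 matches, the Dkk1 window 3 and this Lef1 window 3, while the Axin2 window and the other 3 Lef1 windows held none. Among the other members higher by 2-fold with Nr2f1/2 shRNA at P2, the windows of Fzd4, Fzd5, Rspo1, Sfrp2, Tcf7 and Wnt3 held none, and 1 of the 3 Wnt5b windows held 1 match. Fzd6, Fzd8 and Rspo2, also higher there, had no matched window and were not searched. Windows were matched for 32 members by symbol, with 39 windows in all, and 9 of these (23.1%) held a match, against 27.6% of all 32851 windows of the same length. At least 3 matches occurred in the 3 member windows named and in 0.776% of all windows. A match describes letters, and binding was not measured.

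Intensities are given as percent of the upper-quartile (75th percentile) intensity of the same array, and differences on the log2 scale. Because each probe has its own response, a gene is compared between arrays and never with another gene. Between 57.9% and 67.9% of spots were well above background. All 10 markers of neural stem and progenitor cells were measured above background, with a summed level of 26789% to 55276% on the P2 arrays and 21382% to 33119% on the P0 arrays. Vim and Fabp7 made up much of that sum, and other markers went the other way: Nes measured 646%, 525%, 90.7% and 124% at P2 with Nr2f1/2 shRNA, control shRNA, miR-17 and control miRNA, against 810%, 1048%, 720% and 917% at P0, and Pax6 was lower at P2 with both shRNA vectors (-1.48 and -1.74). Nr2f1 measured 1328% with Nr2f1/2 shRNA and 2988% with control shRNA at P2, and 4127% against 7140% at P0. Nr2f2 measured 315% with the shRNA against 588% with its control at P2, and 706% against 1002% at P0. Both targets were lower in the knockdown culture at both passages, by 0.98 (SE 0.61) for Nr2f1 and 0.70 (SE 0.28) for Nr2f2 on the log2 scale, with limma adjusted p = 0.999 for each.

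**Figure D1:**
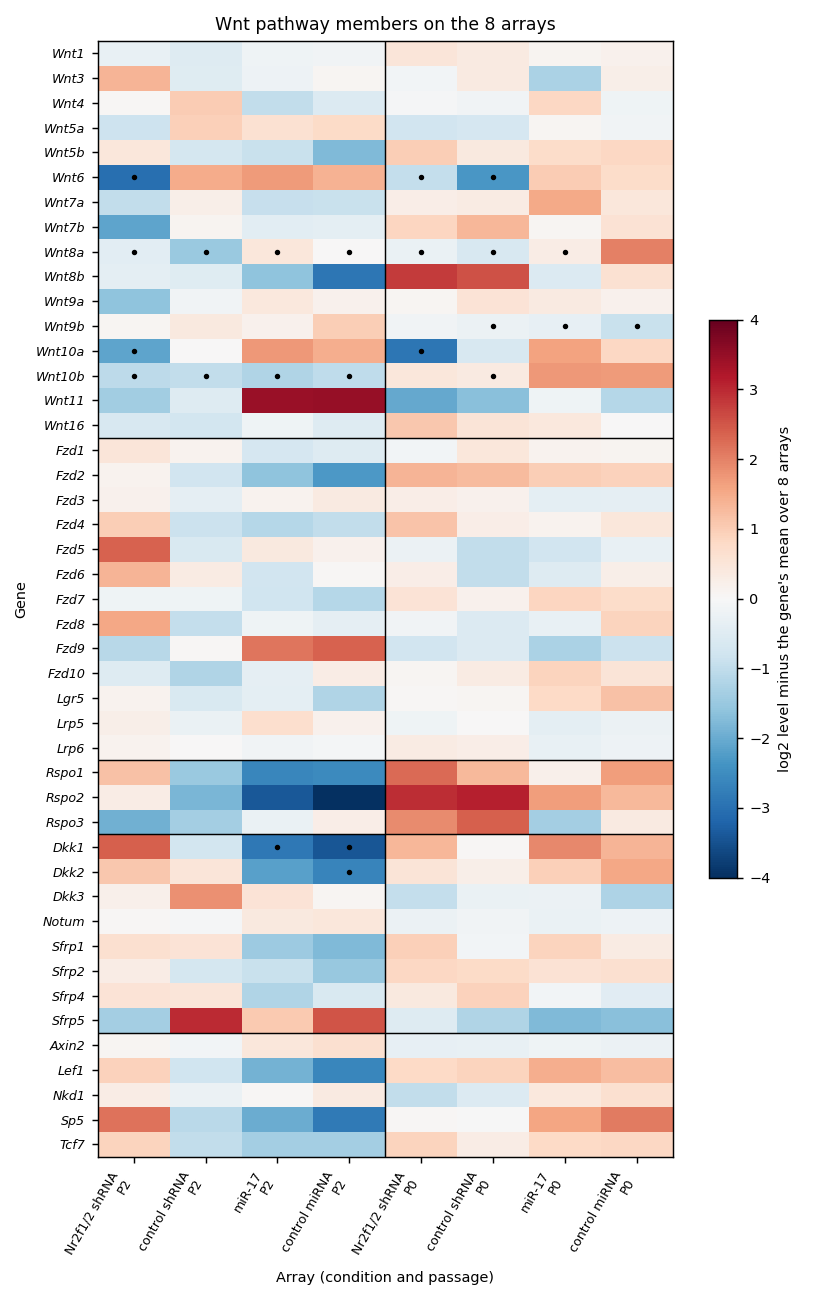
Level of the 45 members above background on at least 1 array (rows, grouped from top to bottom as ligands, receptors, agonists, antagonists, and feedback or target genes) on the 8 arrays (columns). Colour gives the log2 level minus that gene's mean over the 8 arrays, and a dot marks an array on which no probe of the gene was well above background. Rspo2, with values of 6.16% to 133% at P2 and 263% to 932% at P0, and Wnt11, high on both miRNA arrays at P2, are 2 of the rows in which the arrays differ by many fold.

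Most of the family was measurable in these cells. Of the 50 members, 44 had their brightest probe above background on at least 2 arrays and were fitted. Wnt2, Wnt2b, Wnt3a, Rspo4 and Dkk4 were not well above background on any array, and Wnt8a was so on 1 array, the control miRNA culture at P0. This filter is met more easily by a gene that is high in either group, so counts over the 44 fitted members describe those members only.

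The passage comparison asks which members differ between tertiary and primary neurospheres. The R-spondin gene Rspo2, the ligand gene Wnt8b and the receptor gene Fzd2 fell at P2, and no member was called higher. The ligand gene Wnt10b was also called lower, but it entered the fit only through its P0 arrays. The fit by limma used condition and passage as factors (3 residual degrees of freedom), with Benjamini-Hochberg adjustment over all 27120 genes fitted and a threshold of 0.05. It called 4 of 44 members lower at P2, where 2.36% of all genes were called lower, and 0 members higher, where 2.61% of all genes were. At an unadjusted p under 0.05, limma listed 22 of the 44 members, and 40.1% of all genes. The median passage difference was -0.57 over the fitted members and -0.21 over all genes, and quantile normalization brought the median over all genes to -0.02.

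Rspo2 stood at 133% with Nr2f1/2 shRNA, 30.3% with control shRNA, 10.3% with miR-17 and 6.16% with control miRNA at P2, against 840%, 932%, 343% and 263% under the same conditions at P0. All 4 P2 arrays lay below all 4 P0 arrays, and the difference was -4.52 (SE 0.51, limma adjusted p = 0.0342). Rspo2 encodes a secreted R-spondin, and its probe lies at chr15:42852727-42852786 (mm9, the build of the array files). Wnt8b had 29.0% with Nr2f1/2 shRNA, 26.9% with control shRNA, 12.4% with miR-17 and 5.09% with control miRNA at P2, against 260%, 219%, 25.9% and 57.4% under the same conditions at P0. Wnt8b, a ligand gene of the dorsal forebrain in the mouse embryo, was lower at P2 in every condition, by 2.69 (SE 0.45, limma adjusted p = 0.0442). The groups overlapped because the P0 level was low with miR-17, and the probe lies at chr19:44588615-44588674. Fzd2 measured 643% with Nr2f1/2 shRNA, 346% with control shRNA, 191% with miR-17 and 120% with control miRNA at P2, against 1506%, 1397%, 1173% and 1121% under the same conditions at P0. This receptor gene was lower at P2 in every condition with no overlap, by 2.27 (SE 0.37, limma adjusted p = 0.0428), and its probe lies at chr11:102467613-102467672. Wnt10b stood at 1.51% with Nr2f1/2 shRNA, 1.58% with control shRNA, 1.36% with miR-17 and 1.54% with control miRNA at P2, against 4.29%, 3.97%, 10.3% and 10.2% under the same conditions at P0. Wnt10b was not well above background on any P2 array, nor with control shRNA at P0, so the fitted difference of -2.12 (SE 0.35, limma adjusted p = 0.0440) is no measured size. In the 3 conditions where the P0 array was above background, P2 was lower by at least 2.33-fold with Nr2f1/2 shRNA, 4.42-fold with miR-17 and 3.27-fold with control miRNA. A bound of this kind sets the dim array at the lowest intensity well above background on that array, or at the probe's own value if higher. The Wnt10b probe lies at chr15:98602209-98602268.

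The calls depended on 3 of the 4 conditions. Without either control shRNA array, either control miRNA array or either miR-17 array, 0 members and 0 of all genes passed by limma, with smallest adjusted p of 0.122, 0.136 and 0.142 among members, and 8389, 5796 and 5899 genes at an unadjusted p under 0.05. Without either Nr2f1/2 shRNA array, 11 members passed, 10 of them lower: the 4 named above, Wnt5b, Fzd4, Rspo1, Sfrp2, Lef1 and Tcf7. Sfrp5 was the member called higher there. In the same setting 2184 of all genes were called higher and 2599 lower.

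**Figure D2:**
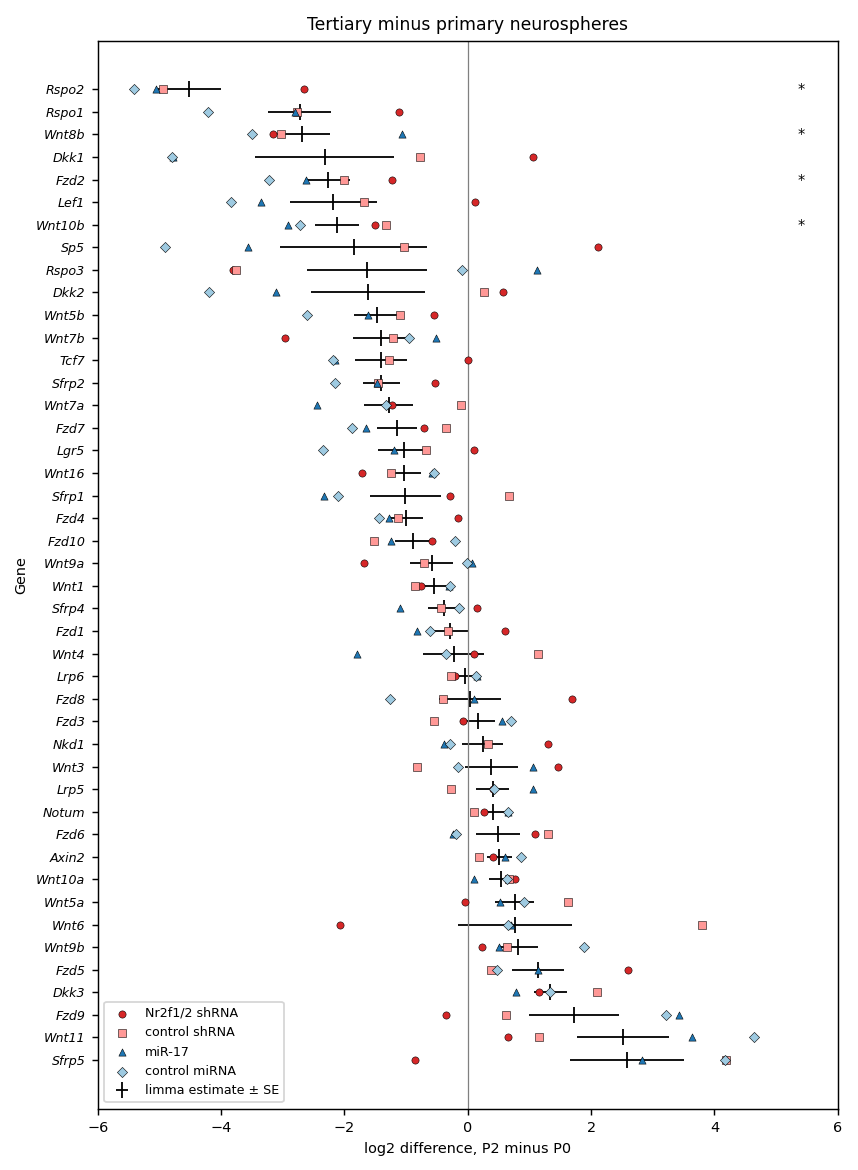
Log2 difference of P2 minus P0 for the 44 fitted members, with 1 point for each of the 4 conditions and a black tick for the limma estimate with its standard error; a star marks an adjusted p under 0.05. The starred members Rspo2, Wnt8b, Fzd2 and Wnt10b lie left of zero in all 4 conditions, Wnt10b from P2 arrays not well above background, while the Nr2f1/2 shRNA points of Sp5, Dkk1 and Fzd5 lie right of the others.

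Among the 15 fitted ligands, 7 were lower at P2 in all 4 conditions (Wnt1, Wnt5b, Wnt7a, Wnt7b, Wnt8b, Wnt10b and Wnt16) and 3 were higher in all 4 (Wnt9b, Wnt10a and Wnt11). Wnt9b was well above background on 4 P2 arrays but only 1 P0 array, so it met the filter through its P2 arrays. Both Nr2f1/2 shRNA arrays were dim for Wnt10a, and both control shRNA arrays for Wnt10b. The directions of those pairs are not measured, yet they enter the counts that follow. Over all 44 fitted members, 15 were lower in every pair and 7 higher in every pair, against 32.1% and 17.4% of all genes. The members' shares therefore lay near those of all genes. The 4 P2 arrays lay wholly below the 4 P0 arrays for 8 members and wholly above for 4, against 15.2% and 9.3% of all genes. Wnt5b had 639% with Nr2f1/2 shRNA, 289% with control shRNA, 252% with miR-17 and 137% with control miRNA at P2, against 931%, 619%, 775% and 831% under the same conditions at P0. Wnt5b, a ligand known mainly for signalling without beta-catenin, was lower at P2 in each condition (difference -1.47, SE 0.37, limma adjusted p = 0.0671). Wnt11 measured 15.2% with Nr2f1/2 shRNA, 27.9% with control shRNA, 438% with miR-17 and 450% with control miRNA at P2, against 9.71%, 12.5%, 35.3% and 18.0% under the same conditions at P0. Wnt11, also known for beta-catenin-independent signalling, stood far above its P0 level in both miRNA-vector cultures, while the shRNA-vector cultures overlapped the P0 range, and the mean difference of 2.52 (SE 0.75) had an adjusted p of 0.0803.

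Among receptors, Fzd2, Fzd4, Fzd7 and Fzd10 were lower at P2 in every condition and Fzd5 was higher in every condition. Fzd7 stood at 89.6% with Nr2f1/2 shRNA, 88.7% with control shRNA, 57.1% with miR-17 and 45.1% with control miRNA at P2, against 146%, 113%, 180% and 165% under the same conditions at P0. Fzd4 had 90.4% with Nr2f1/2 shRNA, 25.5% with control shRNA, 21.1% with miR-17 and 23.4% with control miRNA at P2, against 101%, 55.9%, 51.0% and 63.2% under the same conditions at P0. Neither passed, with limma adjusted p of 0.0755 for Fzd7 and 0.0723 for Fzd4, and the Fzd4 level at P2 was near that at P0 with Nr2f1/2 shRNA (90.4% against 101%). Fzd5 measured 39.4% with Nr2f1/2 shRNA, 5.04% with control shRNA, 10.04% with miR-17 and 8.65% with control miRNA at P2, against 6.53%, 3.88%, 4.57% and 6.23% under the same conditions at P0. The high Fzd5 value belonged to the Nr2f1/2 shRNA culture at P2, and a second Fzd5 probe gave a mean passage difference of -0.08 in place of 1.14, so its direction depends on the probe. Second probes of Fzd2 and Fzd7 gave -3.18 and -2.38, the same direction as the brightest. Fzd1 measured 332% to 741% at P2 and 489% to 724% at P0, and Fzd3 156% to 253% and 151% to 238%, with limma adjusted p of 0.485 and 0.688. The co-receptor gene Lrp6 differed little between arrays, with 822% to 1003% at P2 and 738% to 1160% at P0. The stem cell receptor gene Lgr5, which binds R-spondins, was lower at P2 in 3 of 4 conditions. Lgr5 stood at 38.9% with Nr2f1/2 shRNA, 23.0% with control shRNA, 26.7% with miR-17 and 15.4% with control miRNA at P2, against 36.4%, 37.0%, 61.1% and 78.7% under the same conditions at P0. Its mean difference was -1.03 (SE 0.42, limma adjusted p = 0.135).

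Of the other R-spondin genes, Rspo1 was lower at P2 in all 4 conditions and Rspo3 in 3. Rspo1 had 462% with Nr2f1/2 shRNA, 74.2% with control shRNA, 34.1% with miR-17 and 35.3% with control miRNA at P2, against 1000%, 504%, 237% and 657% under the same conditions at P0. The Rspo1 groups overlapped through the Nr2f1/2 shRNA culture at P2 and the call was missed (difference -2.72, SE 0.51, limma adjusted p = 0.0510). Rspo3 measured 54.3% with Nr2f1/2 shRNA, 80.7% with control shRNA, 174% with miR-17 and 250% with control miRNA at P2, against 759%, 1092%, 80.1% and 266% under the same conditions at P0. Rspo3 was much lower at P2 in both shRNA-vector cultures, close to its P0 level with control miRNA and higher at P2 with miR-17. Rspo1, Rspo2 and Rspo3 are the R-spondin genes that could be measured, and Rspo4 was not well above background.

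Among the secreted antagonists, no passage call was made in either direction. Sfrp2 stood at 472% with Nr2f1/2 shRNA, 236% with control shRNA, 208% with miR-17 and 135% with control miRNA at P2, against 682%, 646%, 574% and 602% under the same conditions at P0. Sfrp2, a secreted Frizzled-related protein, was lower at P2 without overlap, by 1.40 (SE 0.30), with a limma adjusted p of 0.0581. Dkk3 had 720% with Nr2f1/2 shRNA, 2250% with control shRNA, 932% with miR-17 and 670% with control miRNA at P2, against 324%, 529%, 541% and 267% under the same conditions at P0. Dkk3, a member of the Dickkopf family whose action on Wnt signalling is less clear, was higher at P2 without overlap, by 1.34 (SE 0.27, limma adjusted p = 0.0541). Sfrp5 measured 7.598% with Nr2f1/2 shRNA, 155% with control shRNA, 40.4% with miR-17 and 111% with control miRNA at P2, against 13.7%, 8.47%, 5.71% and 6.14% under the same conditions at P0. Sfrp5 was at least 40.4% in 3 of the P2 cultures and 7.598% with Nr2f1/2 shRNA, inside the P0 range. Sfrp1 and Sfrp4 were lower at P2 in 3 of 4 conditions each.

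The feedback and target genes, often used as readouts of beta-catenin activity, had no call between passages. Axin2 stood at 61.7% with Nr2f1/2 shRNA, 53.9% with control shRNA, 79.8% with miR-17 and 90.8% with control miRNA at P2, against 46.5%, 47.7%, 52.6% and 49.9% under the same conditions at P0. Axin2, a scaffold of the beta-catenin destruction complex, was higher at P2 in every condition but only by 0.51 (SE 0.20, limma adjusted p = 0.124), and a second probe gave 0.42. Notum had 565% with Nr2f1/2 shRNA, 537% with control shRNA, 726% with miR-17 and 753% with control miRNA at P2, against 472%, 501%, 464% and 479% under the same conditions at P0. Notum, an enzyme that removes the lipid from Wnt ligands, was likewise higher in every condition by a mean of 0.41 (SE 0.20, adjusted p = 0.177). Nkd1 measured 301% with Nr2f1/2 shRNA, 208% with control shRNA, 250% with miR-17 and 314% with control miRNA at P2, against 122%, 165%, 327% and 383% under the same conditions at P0. Nkd1, which binds Dishevelled, went with the vector at P0, where the miRNA-vector cultures lay above the shRNA-vector cultures.

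Lef1 stood at 557% with Nr2f1/2 shRNA, 168% with control shRNA, 77.9% with miR-17 and 47.8% with control miRNA at P2, against 511%, 537%, 793% and 682% under the same conditions at P0. Tcf7 had 24.2% with Nr2f1/2 shRNA, 6.58% with control shRNA, 5.04% with miR-17 and 5.10% with control miRNA at P2, against 24.3%, 15.9%, 22.5% and 23.2% under the same conditions at P0. Both genes encode DNA-binding partners of beta-catenin, and both were low at P2 in 3 conditions and at their P0 level with Nr2f1/2 shRNA. Sp5 measured 354% with Nr2f1/2 shRNA, 37.5% with control shRNA, 20.0% with miR-17 and 11.2% with control miRNA at P2, against 81.9%, 77.3%, 238% and 337% under the same conditions at P0. Sp5, a zinc finger transcription factor known as a direct Wnt target, was lower at P2 in 3 conditions and highest of all 8 arrays with Nr2f1/2 shRNA at P2. The mean passage differences were -2.18 (SE 0.70) for Lef1, -1.41 (SE 0.42) for Tcf7 and -1.85 (SE 1.19) for Sp5, with limma adjusted p of 0.0899, 0.0820 and 0.285.

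**Figure D3:**
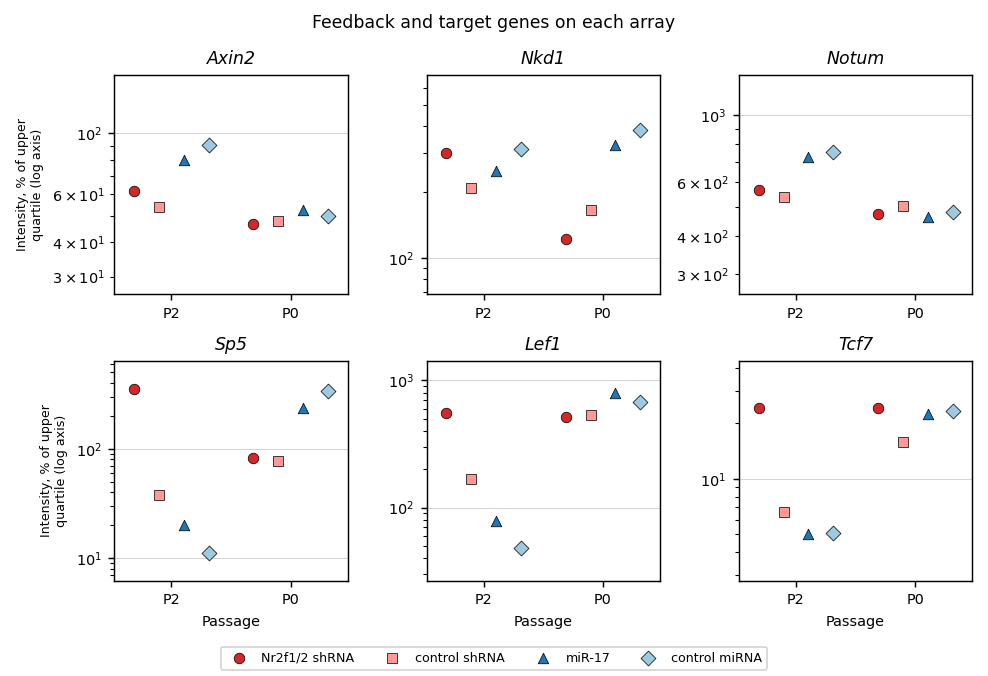
Intensity of 6 feedback and target genes on each of the 8 arrays, as percent of the array's upper quartile on a log axis, with P2 left of P0 and 1 symbol per condition. Axin2 spans 46.5% to 90.8% over all arrays, whereas Sp5 spans 11.2% to 354%, with the Nr2f1/2 shRNA culture at P2 on top.

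The knockdown comparison asks which members differ between Nr2f1/2 shRNA and control shRNA. Over both passages together limma called 0 of 44 members and 0 of all genes (background 0%), with 4 members (Wnt10a, Fzd4, Fzd5 and Dkk3) and 1.91% of all genes at an unadjusted p under 0.05. The single pairs of arrays had no replicate check and are described at a 2-fold difference, among members above background on at least 1 of the 2 arrays. At P2, 13 of 43 members were higher by 2-fold with Nr2f1/2 shRNA, where 9.35% of all genes were, and 9 were lower, where 10.4% were. At P0, 3 of 43 members were higher and 1 lower, where 3.8% and 1.15% of all genes were.

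The 13 higher members at P2 were the target and nuclear genes Sp5, Lef1 and Tcf7, the receptors Fzd4, Fzd5, Fzd6 and Fzd8, the agonists Rspo1 and Rspo2, the ligands Wnt3 and Wnt5b and the antagonists Dkk1 and Sfrp2. Sp5 measured 354% with Nr2f1/2 shRNA and 37.5% with control shRNA, a log2 difference of 3.24. Dkk1 stood at 43.1% with Nr2f1/2 shRNA, 4.95% with control shRNA, 1.14% with miR-17 and 0.762% with control miRNA at P2, against 20.7%, 8.49%, 31.2% and 21.2% under the same conditions at P0. Dkk1, an antagonist that binds Lrp5 and Lrp6 and is itself a Wnt target, differed by 3.12 at P2 and by 1.29 at P0. Fzd8, a receptor gene related to Fzd5, measured 129% with Nr2f1/2 shRNA against 22.8% with control shRNA at P2 (2.50). The log2 differences at P2 were 2.97 for Fzd5, 2.64 for Rspo1, 2.14 for Rspo2, 1.88 for Tcf7, 1.83 for Fzd4 and 1.73 for Lef1. Axin2, Notum and Nkd1 differed by 0.19, 0.07 and 0.53, under 2-fold. Wnt3 had 260% with Nr2f1/2 shRNA, 73.2% with control shRNA, 88.5% with miR-17 and 107.2% with control miRNA at P2, against 94.7%, 129%, 42.7% and 120% under the same conditions at P0. Wnt3, a ligand known to signal through beta-catenin, was highest with Nr2f1/2 shRNA at P2.

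The 9 lower members at P2 were the ligands Wnt5a, Wnt6, Wnt7a, Wnt7b, Wnt9a and Wnt10a, the antagonists Sfrp5 and Dkk3 and the receptor Fzd9. Wnt6 measured 0.483% with Nr2f1/2 shRNA, 10.96% with control shRNA, 12.8% with miR-17 and 10.3% with control miRNA at P2, against 2.03%, 0.785%, 7.94% and 6.603% under the same conditions at P0. Wnt6 was not well above background with Nr2f1/2 shRNA at either passage or with control shRNA at P0, so its P2 difference is at least 5.94-fold. Sfrp5 measured 7.598% with Nr2f1/2 shRNA against 155% with control shRNA, a difference of -4.35. Wnt5a, a ligand known for beta-catenin-independent signalling, measured 269% against 919% (-1.77), and Wnt7b measured 14.7% against 69.4% (-2.24). Wnt10a stood at 1.72% with Nr2f1/2 shRNA, 7.56% with control shRNA, 24.6% with miR-17 and 20.7% with control miRNA at P2, against 1.01%, 4.78%, 22.9% and 13.2% under the same conditions at P0. Wnt10a was not well above background on either Nr2f1/2 shRNA array, so the bounds are at least 4.10-fold lower at P2 and at least 1.66-fold lower at P0. It is the 1 member counted as lower at P0, where its intensities differ by over 2-fold but the bound does not reach that size.

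At P0 the higher members were Dkk1, Fzd6 and Sfrp1. Fzd6 had 31.4% with Nr2f1/2 shRNA, 15.4% with control shRNA, 7.26% with miR-17 and 12.6% with control miRNA at P2, against 14.8%, 6.21%, 8.58% and 14.4% under the same conditions at P0. Fzd6, a receptor known from planar polarity, was higher with Nr2f1/2 shRNA by 1.03 at P2 and 1.26 at P0. An interaction term set the passage difference with Nr2f1/2 shRNA against the mean passage difference of both controls, control shRNA and control miRNA. It called 0 of 44 members and 0 of all genes by limma. At an unadjusted p under 0.05 it listed Wnt6, Fzd5, Fzd8, Rspo2, Sfrp5 and Sp5, 6 members in all, and 3.95% of all genes. The interaction was 5.09 for Sp5 and -5.04 for Sfrp5 (limma adjusted p = 0.9998 for each), on 1 residual degree of freedom. Because control miRNA arrays enter this term, it is not the change in the knockdown difference alone. That difference was 3.24 at P2 and 0.08 at P0 for Sp5, and -4.35 and 0.70 for Sfrp5.

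**Figure D4:**
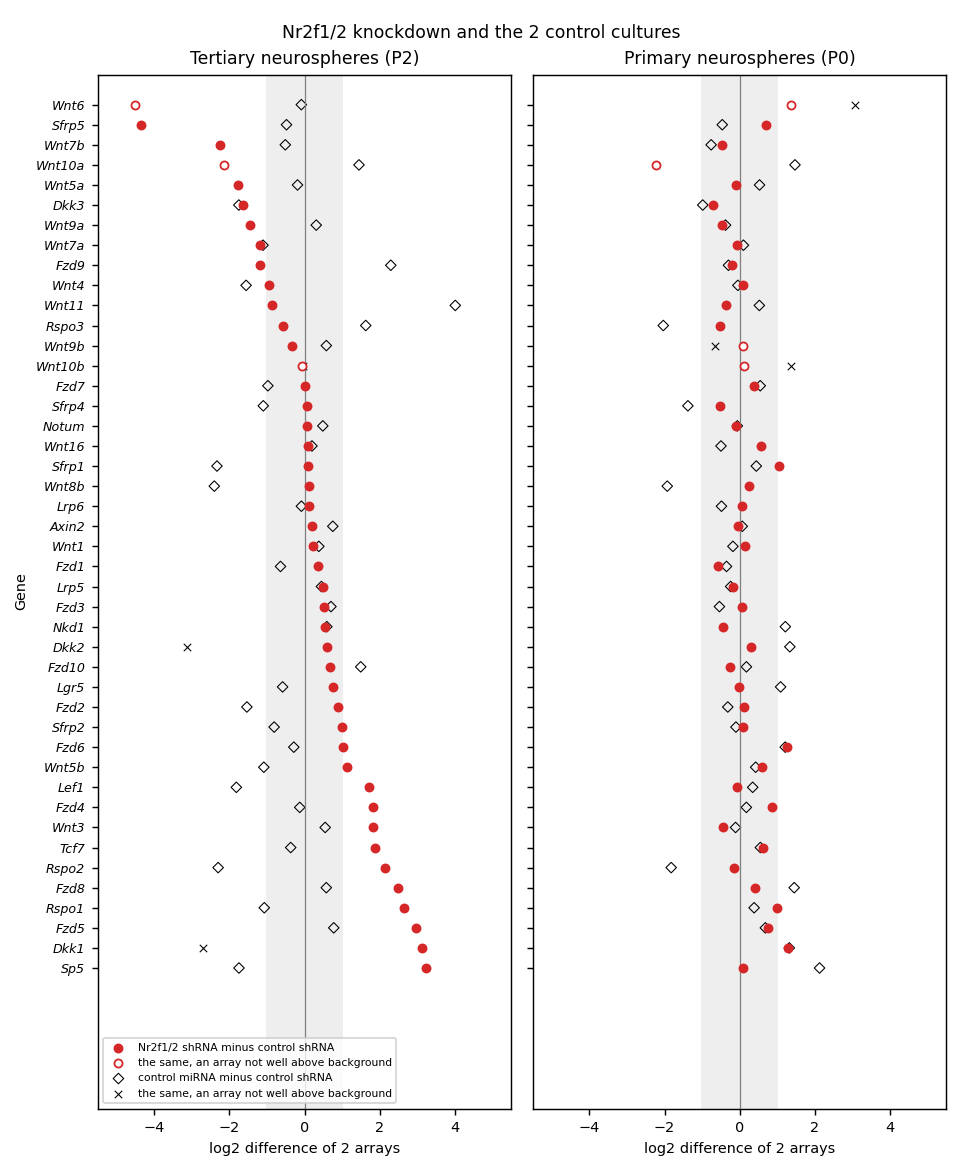
Log2 difference of Nr2f1/2 shRNA minus control shRNA (red) and of control miRNA minus control shRNA (open diamonds) for the 44 fitted members, at P2 (left) and P0 (right), sorted by the knockdown difference at P2; each point is a difference of 2 arrays and the grey band marks differences under 2-fold. Open circles and crosses mark differences with an array not well above background, which are not measured sizes. At P2 the filled red points run from -4.35 for Sfrp5 to 3.24 for Sp5, while at P0 most lie inside the band.

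The 2 control cultures show how far arrays lie apart without a manipulation of Nr2f1, Nr2f2 or miR-17. At P2, control miRNA minus control shRNA reached 2-fold higher for 5 of 43 members and 2-fold lower for 14, where 10.3% and 14.7% of all genes did. At P0 it did so for 11 and 4 of 44 members, where 16.6% and 5.1% of all genes did. Dim arrays limit 3 of these to bounds under 2-fold, Dkk1 at P2 (at least 1.59-fold) and Wnt6 and Wnt8a at P0 (at least 1.76-fold and 1.33-fold). At P2, 19 of 43 members thus reached 2-fold between the controls and 22 of 43 with the knockdown, and at P0, 15 of 44 and 4 of 43. The knockdown and this comparison share the control shRNA arrays, so a high or low value there enters both. Vector system and slide column cannot be told apart on these arrays.

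A comparison without shared arrays sets the knockdown at P2 beside the passage difference of the miRNA-vector cultures. It was chosen after the values were seen. Of 44 members, 17 were lower at P2 by 2-fold with both miR-17 and control miRNA, where 22.7% of all genes were. Of these 17, 9 (52.9%) were higher by 2-fold with Nr2f1/2 shRNA at P2, where 26.6% of all such genes were, and 1, Wnt7a, was lower, where 4.99% were. The 9 were Wnt5b, Fzd4, Rspo1, Rspo2, Dkk1, Sfrp2, Lef1, Sp5 and Tcf7. In the other direction, 3 members (Wnt11, Fzd9 and Sfrp5) were higher at P2 with both miRNA vectors, where 12.6% of all genes were. Of these, Fzd9 and Sfrp5 were lower with Nr2f1/2 shRNA at P2, as were 43.2% of all such genes, and none was higher, as 1.26% were.

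Markers of dividing cells and of glia also differed between these arrays. The summed level of 7 dividing-cell markers was 5774% with Nr2f1/2 shRNA, 1008% with control shRNA, 361% with miR-17 and 385% with control miRNA at P2, and 5330% to 7722% at P0. All 7 were higher by 2-fold with Nr2f1/2 shRNA at P2. The summed level of 9 astrocyte markers was 6500%, 16962%, 41024% and 43155% in the same 4 cultures at P2, and 1164% to 1895% at P0, and 8 of the 9 were lower by 2-fold with Nr2f1/2 shRNA at P2. Of the 7 oligodendrocyte precursor markers, 6 were lower by 2-fold with Nr2f1/2 shRNA at P2, with a sum of 690% against 9036% with control shRNA. Mesenchyme markers summed to 3649% to 8489% at P2 and 692% to 3690% at P0, dorsal midline and choroid plexus markers to 384% to 1093% and 525% to 910%, and pluripotent cell markers to 311% to 501% and 1030% to 2709%. Mesoderm and endoderm markers summed to 1126% with Nr2f1/2 shRNA, 784% with control shRNA, 230% with miR-17 and 104% with control miRNA at P2, and to 842% to 1549% at P0. The sum does not speak for each marker: 0 of the 7 were higher by 2-fold with Nr2f1/2 shRNA at P2 and 2 were lower. Sp5, Rspo2 and Lef1 share the order of this sum over the P2 arrays, as do other members such as Fzd2 and Dkk2. Neuron markers summed to 8265% to 11353% at P2 and 11210% to 27510% at P0, and endothelium markers to 784% to 1498% and 551% to 1056%. In RNA of whole cultures, fewer cells of a type and less RNA per cell cannot be told apart, and the part of these cell types in the members' differences was not tested.

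The miR-17 comparison asks which members differ with the added microRNA. Limma called 0 of 44 members and 0 of all genes over both passages, with 0 members and 0.992% of all genes at an unadjusted p under 0.05. At P2, 1 of 42 members was higher by 2-fold and 1 lower, where 3.55% and 1.32% of all genes were. These were Wnt8b, at 12.4% with miR-17 against 5.09% with control miRNA (1.28), and Sfrp5, at 40.4% against 111% (-1.46). At P0, 3 of 44 members were higher (Wnt4, Wnt7a and Dkk3) and 6 lower (Wnt3, Wnt8a, Wnt8b, Fzd8, Rspo1 and Rspo3), where 5.15% and 1.9% of all genes were. Rspo3 measured 80.1% with miR-17 against 266% with control miRNA (-1.73), and Wnt3 42.7% against 120% (-1.49). Wnt8a measured 0.923% with Nr2f1/2 shRNA, 0.436% with control shRNA, 1.69% with miR-17 and 1.25% with control miRNA at P2, against 1.03%, 0.794%, 1.51% and 4.98% under the same conditions at P0. Wnt8a was above background in 1 culture, so the P0 difference is at least 1.48-fold and its place among the 6 rests on a dim array. The interaction of miR-17 with passage, also set against the mean of both controls, called 0 members and 0 of all genes by limma. At an unadjusted p under 0.05 it listed 1 member, Wnt8b, and 1.08% of all genes.

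Several members differed between passages in 1 vector system and not in the other. The difference was tested with a term for passage by vector system, added after the values were seen, with 2 residual degrees of freedom. By limma it called 3 of 44 members with a higher passage difference in the miRNA vectors, where 1.78% of all genes were, and 3 with a lower one, where 6.78% were. Rspo3 (4.29, SE 0.48), Wnt11 (3.24, SE 0.46) and Fzd9 (3.19, SE 0.43) were the higher, with adjusted p of 0.0307, 0.0368 and 0.0342. Dkk1 (-4.93, SE 0.67), Dkk2 (-4.08, SE 0.46) and Sfrp1 (-2.41, SE 0.42) were the lower, with adjusted p of 0.0349, 0.0307 and 0.0462.

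Fzd9 stood at 409% with Nr2f1/2 shRNA, 929% with control shRNA, 3969% with miR-17 and 4565% with control miRNA at P2, against 524%, 607%, 369% and 493% under the same conditions at P0. Fzd9, a Frizzled receptor gene, was about level between passages with the shRNA vectors and several-fold higher at P2 with the miRNA vectors. Dkk2 had 44.8% with Nr2f1/2 shRNA, 29.4% with control shRNA, 4.64% with miR-17 and 3.37% with control miRNA at P2, against 30.1%, 24.5%, 40.3% and 61.7% under the same conditions at P0. Sfrp1 measured 81.0% with Nr2f1/2 shRNA, 75.7% with control shRNA, 18.8% with miR-17 and 15.1% with control miRNA at P2, against 98.9%, 47.6%, 95.4% and 64.6% under the same conditions at P0. Both antagonists were low in the miRNA-vector cultures at P2 and otherwise stayed in the range of the P0 arrays or near it. Dkk1 was not well above background on either of those arrays, so its fitted term is no measured size, and Dkk2 not with control miRNA at P2. Without any 1 miRNA-vector array 0 members passed this test, with smallest limma adjusted p of 0.135 (a control miRNA array left out) and 0.174 (a miR-17 array left out). Without any 1 shRNA-vector array, the shRNA vectors keep only 1 complete pair of arrays, so member counts of those fits are not given. The miRNA vectors have the same limit when 1 of their arrays is left out.

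**Figure D5:**
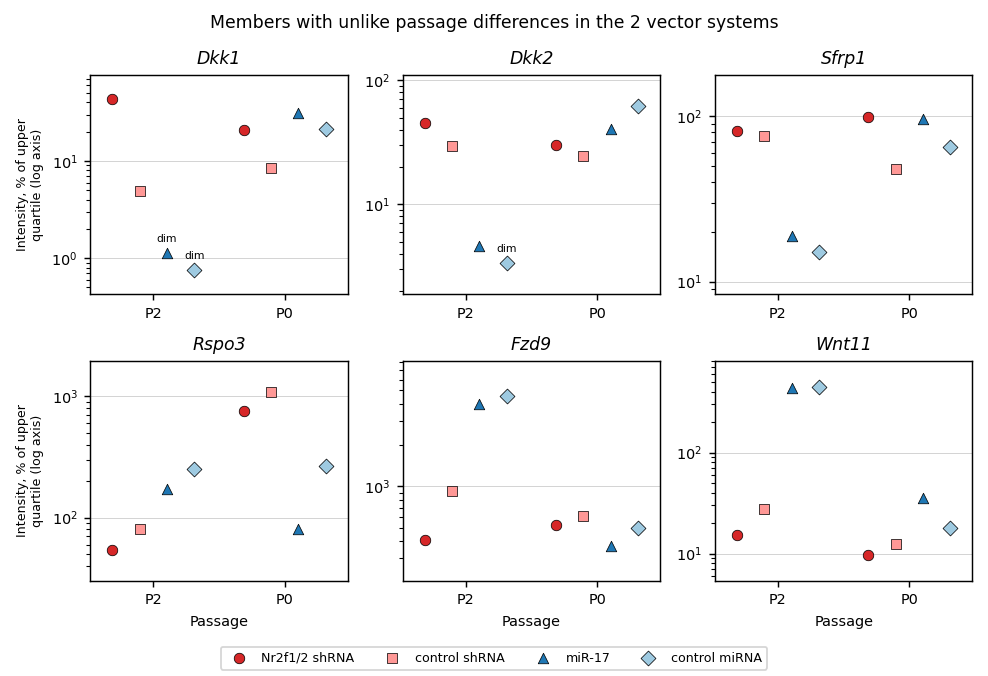
Intensity of the 6 members called for a passage difference that is unlike between vector systems, on each of the 8 arrays, as percent of the array's upper quartile on a log axis, with P2 left of P0. The word dim marks an array where the gene was not well above background; Fzd9 and Wnt11 are highest in the 2 miRNA-vector cultures at P2, where Dkk1, Dkk2 and Sfrp1 are lowest.

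Other genes of the pathway, from a list of 75, were read in the same fit to place the members. Of these, 71 were fitted, and limma called 3 higher at P2 and 0 lower, against 2.61% and 2.36% of all genes. Tcf7l1, a Tcf protein known mainly as a repressor, measured 75.2%, 92.6%, 131% and 132% at P2 with Nr2f1/2 shRNA, control shRNA, miR-17 and control miRNA, against 33.9%, 27.0%, 30.6% and 44.7% at P0 (1.65, SE 0.23, adjusted p = 0.0373). Daam2, a formin that acts with Dishevelled, rose by 3.14 (SE 0.52, limma adjusted p = 0.0438), and Myc, a growth regulator listed among Wnt targets, by 1.36 (SE 0.22, adjusted p = 0.0428). The cyclin gene Ccnd1 measured 57.9% to 459% at P2 against 1521% to 1699% at P0, with a difference of -3.22 (SE 0.61) and a limma adjusted p of 0.0518. None of the 18 genes of the destruction complex and cytoplasm was called by limma, with 3 at an unadjusted p under 0.05, and none differed by 2-fold in a knockdown or miR-17 pair. Ctnnb1, which encodes beta-catenin, measured 2142% to 4011% at P2 and 1977% to 2879% at P0. Among 10 other extracellular regulators fitted, 4 were higher by 2-fold with Nr2f1/2 shRNA at P2 and 1 was lower, where 9.35% and 10.4% of all genes were. The higher included Frzb at 63.5% against 11.7% with control shRNA and Wif1 at 258% against 91.6%. The lower was Draxin, at 5.22% against 24.9%.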

How the data were processed

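From each of the 8 neurosphere cultures, 50 ng of RNA was used and labelled with Cy3 for single-colour Agilent arrays. The arrays shared 1 slide and 1 scan, with shRNA arrays in slide column 1 and miRNA arrays in column 2, per the file headers. Each deposited scanner file gives background-subtracted intensity for every spot. The image software was Agilent Feature Extraction 10.7.3.1, per the submitters' processing notes. A second deposited table, of signal values, was found to be linear and to equal the scanner intensity after division of each array by its own constant (481 to 949), with column medians of 0.0662 to 0.124. It served as an alternative, and no source used here says how the constants arose.

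Control spots and 1104 outlier-flagged spots were left out. Intensities were averaged per probe on the log2 scale, and each array's 75th percentile was subtracted. The probe with the highest mean intensity stood for a gene, and 27120 genes whose probe was well above background on at least 2 arrays were fitted with limma 3.58.1 in R 4.3.3 (two-sided, Benjamini-Hochberg adjusted p under 0.05). The number of arrays limits the precision. The passage fit had 3 residual degrees of freedom (2.19 prior) and the interaction fits 1 (3.03 prior). Each interaction term set a manipulation's passage difference against the mean of both control conditions, with no term for passage by vector system. Condition paired the P2 and P0 arrays. The labels do not tie a P2 culture to the P0 culture measured. In bounds, a gene counted as above background where any of its probes was.

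All members are named; values on every array are given for members called, the 4 per role with the largest consistent passage difference, the 3 with the largest difference in each single pair, and the target genes. Members and lists were chosen with earlier results of these data known. As alternatives, the fits were repeated with normexp correction (offset 50), quantile normalization, other filters, the authors' table, the mean of probes, a trended prior, subsets of arrays, and 1.5- and 3-fold limits.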

Additional observations from a re-analysis of the deposited data

Results flagged for a closer look

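Wnt8b had opposite miR-17 differences at the 2 passages: it was higher with miR-17 than with control miRNA at P2 (log2 difference 1.28) and lower at P0 (-1.15). The interaction term was 2.19, and limma did not call it (adjusted p = 0.9998, unadjusted p = 0.0365). That term is set against the mean of both controls, so control shRNA arrays enter it and it is not the change between these 2 differences. Both Wnt8b probes gave these directions, with 1.31 at P2 and -0.99 at P0 for the dimmer probe.

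The passage difference was unlike in the miRNA and shRNA vector systems for 6 members, by the limma term for passage by vector system. The value, miRNA minus shRNA vectors, was 4.29 for Rspo3, 3.24 for Wnt11 and 3.19 for Fzd9, and -4.93 for Dkk1, -4.08 for Dkk2 and -2.41 for Sfrp1. Dkk1 with both miRNA vectors and Dkk2 with control miRNA were not well above background at P2, so theirs are no measured sizes. Cell type markers also differed between the vector systems at P2. Astrocyte markers summed to 41024% and 43155% in the miRNA-vector cultures and 6500% and 16962% in the shRNA-vector cultures. That sum was higher at P2 than at P0 (1164% to 1895%) in all 4 conditions. Dividing-cell markers summed to 361% and 385% with the miRNA vectors at P2, against 5774% and 1008% with the shRNA vectors. The part of either cell type was not tested.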

How the results depend on the processing

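The passage comparison called 4 members in the fit as reported, 12 with normexp and 8 with a trended prior. It called 9 among genes above background on all 8 arrays and 23 on the miRNA arrays alone. On the shRNA arrays alone or the control arrays alone it called 0 members and 0 of all genes. Of all genes, 1803 were called higher and 2496 lower with a trended prior. Among genes above background on all 8 arrays, 1544 and 2109 of 20595 were called. On the miRNA arrays alone 5242 and 8497 of 27120 were, so the members' share there lay near that of all genes. Leaving out 1 array gave 0 to 11. Passage by vector system gave 6 members, and 2 with no filter, where 58 of all genes were called higher and 378 lower. No member passed it without any 1 miRNA-vector array. At 2-fold, the knockdown at P0 gave 4 members, 0 with normexp, 11 at a 1.5-fold limit and 1 at a 3-fold limit. MiR-17 at P2 gave 2 members, 1 with normexp, 13 at 1.5-fold and 0 at 3-fold, and at P0 it gave 9 members, 3 with normexp and 2 at 3-fold. The control cultures gave 19 members at P2 and 11 at 3-fold, and at P0 15 members, 8 with normexp and 6 at 3-fold. The knockdown at P2 gave 22 members. Of 26 named passage differences, 19 kept their direction in all 19 settings run. Direction turned for Dkk1 (0.14) and Sp5 (0.53) on shRNA arrays, for Fzd6 (-0.21), Nkd1 (-0.34) and Rspo3 (0.51) on miRNA arrays, for Wnt3 (-0.49) on control arrays, and, with 1 array left out, for Nkd1 (-0.11 without an Nr2f1/2 shRNA array, up to 0.45) and Wnt6 (-0.24 without a control shRNA array, up to 1.71); the cause was not tested. Over all genes, passage calls were 709 higher and 639 lower, against 2152 and 4861 with normexp and 941 and 481 with quantile normalization. The passage fit was paired by condition, and without that term it called 6 members. In that setting 1700 of all 27120 genes were called higher and 2208 lower, so the members' share lay near that of all genes. Dim members such as Wnt6, Wnt10a and Wnt10b are limited by signal over background.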
